A study of Mus musculus with 12 samples.

Results

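The comparison described here set 3 liver arrays labelled KO 24 months tumor against 3 liver arrays labelled KO 6 months, which is 6 of the 12 arrays of the study. Members were taken by their deposited labels alone, and 18194 genes, each read by its brightest probe set that names 1 gene, were compared. All 12 arrays were labelled as biological replicates from male mice of the 129J strain on a regular diet, 3 in each of 4 groups. By their labels, both groups carried the same whole-body loss of Iqgap2, the 6-month group gave normal liver and the 24-month group gave hepatocellular carcinoma (HCC) tissue. The other 6 arrays were labelled as normal wild-type (WT) livers, 3 at 6 months and 3 at 24 months. The labelled question was therefore how an Iqgap2-/- liver tumor of an old mouse differs from a young Iqgap2-/- liver without tumor.

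IQGAP2 is a scaffold protein of hepatocytes that binds actin, calmodulin and the small GTPases CDC42 and RAC1. It belongs to a family with IQGAP1, which most cells carry, and IQGAP3, which is tied to dividing cells. Mice without Iqgap2 are known to develop liver cancer late in life, often with signs of Wnt and β-catenin signalling, the pathway that also sets the pericentral program of the normal liver lobule.

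The values of Iqgap2 went against the labels. Its brightest probe set measured a log2 intensity of 8.12, 8.68 and 8.07 in replicates 1 to 3 of the arrays labelled KO 6 months. It measured 12.15, 12.05 and 12.15 in the arrays labelled KO 24 months tumor, 12.28, 12.30 and 11.92 in those labelled WT 24 months, and 8.38, 8.24 and 8.33 in those labelled WT 6 months. The arrays named as knockout tumors thus carried the gene at the level of the old wild-type livers, and the arrays named as young wild-type livers lacked that level. The second probe set of Iqgap2 had the same order, with 7.32 to 7.42 in the arrays labelled KO 6 months and 8.55 to 8.97 in those labelled KO 24 months tumor.

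Afp, the fetal serum protein used as a marker of liver cancer, also did not follow the labels. It measured 6.11, 6.25 and 6.27 in the arrays labelled KO 24 months tumor and 6.68, 6.76 and 6.79 in those labelled KO 6 months. In the arrays labelled WT 6 months it measured 12.04, 13.05 and 13.27. Its level was therefore low in both groups compared here and high in the arrays labelled young wild type.

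The comparison therefore has a pair of readings. As deposited, it sets KO tumors at 24 months against KO liver at 6 months. With the labels KO 24 months tumor and WT 6 months exchanged, it sets WT liver at 6 months against KO liver at 6 months, so that "higher" would mean higher in WT. The same 6 arrays are compared under both readings and the values do not change, and which reading holds cannot be settled from the labels. The short form "labelled tumor" is used below for the 3 arrays labelled KO 24 months tumor.

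Few genes separated the groups strongly. In limma over all 12 arrays, 4 genes were at least 3-fold higher in the arrays labelled tumor at an adjusted p of 0.05 or less, which is 0.022% of the genes tested. They were Iqgap2, Phlda1, Foxq1 and Tedc2. No gene was lower by that rule (0 of 18194, 0%). Without the fold, 6 genes were higher (0.033%), the additional ones being Fam214a and Aatk, and again 0 were lower (0%). At an unadjusted p under 0.05 there were 605 genes higher and 493 lower, 6.03% of all in both directions, and SAM, the test named in the study's methods, called 11 higher and 5 lower at a fold of 3. The count of 4 became 1 without replicate 2 or 3 of KO 6 months or replicate 2 of the labelled tumor arrays, 2 without replicate 3 of the latter, and 8 without replicate 1 of WT 24 months. With 3 arrays against 3, an exact permutation test cannot give a p below 0.1, and the number of arrays limits the precision of every value.

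The spread used by limma came from all 4 groups, and the groups compared were the tighter ones. The median SD over genes was 0.13 in both groups compared, 0.14 in the arrays labelled WT 6 months and 0.17 in those labelled WT 24 months. A limma fit of the 6 arrays alone called 35 genes higher (0.192%) and 45 lower (0.247%) at the adjusted p, among them all 6 of the genes above. Where a gene is given a second adjusted p below, it is from this fit of the 6 arrays.

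Iqgap2 rose by 3.83 on the log2 scale (SE 0.16, adjusted p = 7.7e-07 from limma). The gap between the lowest labelled tumor array and the highest array labelled KO 6 months was 3.37. It was the only one of the 6 genes that kept its call when any 1 array was left out. Among its family, Iqgap1 differed by -0.26 (SE 0.44) and Iqgap3 by -0.08 (SE 0.10), and neither passed the test.

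**Figure D1:**
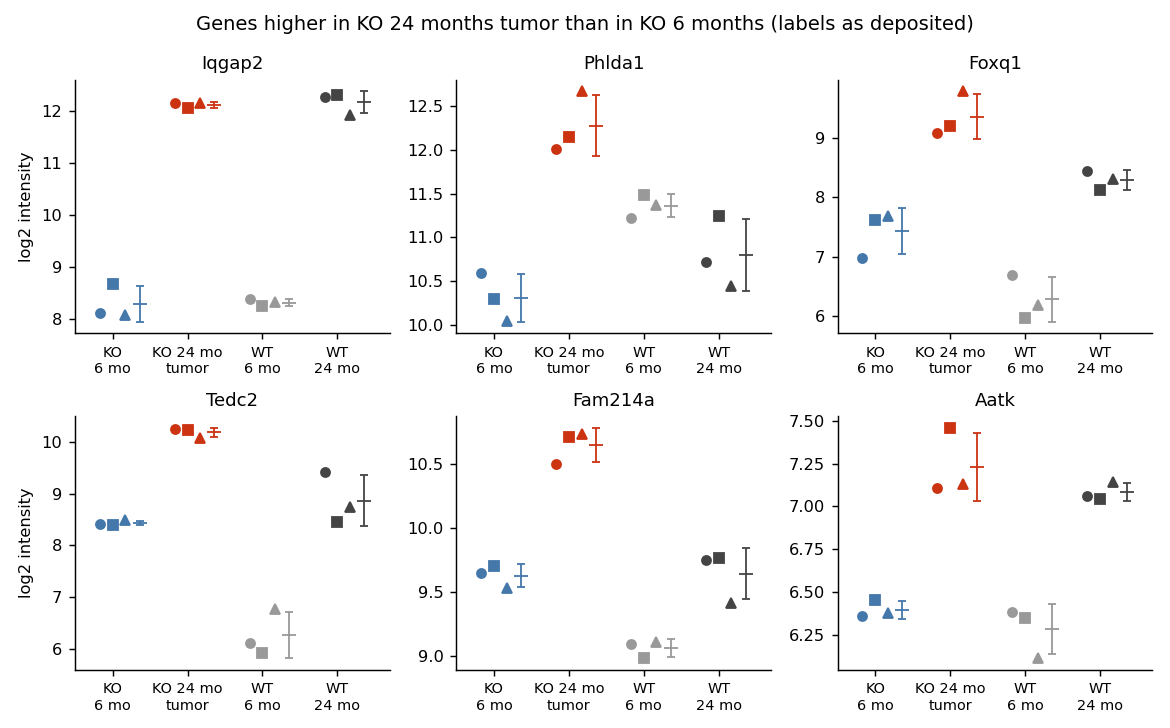
Log2 intensity of the 6 genes that passed limma, in each array of the 4 labelled groups (circle, square and triangle for replicates 1, 2 and 3), with the mean and SD of each group beside the points (n = 3). In all 6 genes the arrays labelled KO 24 months tumor lie above those labelled KO 6 months without overlap, and in Iqgap2 and Aatk they lie at the level of WT 24 months.

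Phlda1 encodes a pleckstrin homology-like protein that restrains growth factor signalling and is itself induced by it. Its log2 intensity was 10.59, 10.29 and 10.05 in the arrays labelled KO 6 months and 12.00, 12.15 and 12.67 in the arrays labelled tumor. The other arrays all lay below the labelled tumor arrays, with 11.23 to 11.49 in those labelled WT 6 months and 10.44 to 11.24 in those labelled WT 24 months. The difference was 1.96 (SE 0.22, adjusted p = 0.0140 from limma). The arrays labelled tumor also exceeded WT 24 months by 1.47 (adjusted p = 0.0253 from limma, in a comparison that called 0.572% of genes). The call against KO 6 months was lost without replicate 2 or 3 of either group, with an adjusted p of 0.126 at most.

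Foxq1, a forkhead transcription factor known for its part in epithelial-to-mesenchymal change, measured 6.99, 7.62 and 7.69 in the arrays labelled KO 6 months. In the arrays labelled tumor it measured 9.08, 9.20 and 9.78. Its difference was 1.92 (SE 0.24, adjusted p = 0.0287 from limma), and its second probe set differed by 2.30. The arrays labelled WT 24 months, at 8.12 to 8.45, lay between both groups, and the arrays labelled WT 6 months, at 5.97 to 6.70, were the lowest. Its call was lost without replicate 1 of KO 6 months and without replicate 2 or 3 of either group, with an adjusted p between 0.0720 and 0.150 (limma).

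Fam214a, a gene of little known function, measured 9.65, 9.71 and 9.53 in the arrays labelled KO 6 months and 10.49, 10.71 and 10.73 in those labelled tumor. Its difference of 1.02 (SE 0.12, adjusted p = 0.0140 from limma) is a 2.03-fold change, below the fold of 3 but with arrays that lay closely together. Its second probe set gave 0.74, with arrays that overlapped. Aatk, a kinase gene best known in neurons, measured 6.36, 6.45 and 6.37 against 7.11, 7.46 and 7.13, a difference of 0.84 (SE 0.11, adjusted p = 0.0455 from limma). Fam214a lost its call without any 1 array of KO 6 months and without replicate 2 or 3 of the labelled tumor arrays (adjusted p up to 0.142 from limma). With the mean of its probe sets the adjusted p was 0.377 (limma). With centring on housekeeping genes it was 0.128, and with the replicate number as a block 0.0645. Aatk lost its call without any 1 of the 6 arrays. The call was also lost without replicate 1 or 2 of WT 6 months or replicate 2 of WT 24 months (adjusted p up to 0.295 from limma). Centring on housekeeping genes, another variance prior and the replicate block gave Aatk an adjusted p of 0.156, 0.0634 and 0.0760 (limma).

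Aatk was also the gene whose pattern was most like that of Iqgap2 over the 12 arrays, with a Pearson correlation of 0.95. Orm3, an acute phase glycoprotein, followed with 0.88, then Zcchc2 with 0.88, Ddhd2 with 0.87 and Mms19 with 0.87. In all 5 the labelled tumor arrays and the WT 24 months arrays lay on the same side of KO 6 months. These correlations describe 12 points that fall into 2 levels of Iqgap2 and share their arrays, and no test was made of them.

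F2r, the thrombin receptor gene PAR1, is the measured gene directly beside Iqgap2 on chromosome 13, and its arrays did not overlap between the groups. It measured 9.81, 9.01 and 9.06 in the arrays labelled KO 6 months and 10.35, 10.48 and 10.44 in those labelled tumor, a difference of 1.13 (SE 0.43, adjusted p = 0.742 from limma over 12 arrays and 0.0435 over 6). Both of its probe sets differed by more than 1. In the other groups it did not follow Iqgap2, since it reached 10.87 in replicate 3 of WT 6 months, where Iqgap2 was low, and 9.26 in replicate 2 of WT 24 months, where Iqgap2 was high. Of the 10 measured genes on each side of Iqgap2, the other 19 differed by 0.34 at most.

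The promoters of these neighbouring genes are shown because both genes were higher in every labelled tumor array. They run 5′ to 3′ from 250 bases before to 50 bases after the start, from RefSeq on GRCm38.p6, both on the minus strand. Iqgap2 is at chr13:95891873-95892172 and F2r at chr13:95618417-95618716. Capitals mark every match, on either strand, to any of 4 short motifs, which may overlap. The TATA box was searched as TATAAA. The GC box, which Sp1-type factors bind, was searched as GGGCGG. The E-box was searched as CACGTG. The CCAAT box was searched by the letters of its name.
Iqgap2: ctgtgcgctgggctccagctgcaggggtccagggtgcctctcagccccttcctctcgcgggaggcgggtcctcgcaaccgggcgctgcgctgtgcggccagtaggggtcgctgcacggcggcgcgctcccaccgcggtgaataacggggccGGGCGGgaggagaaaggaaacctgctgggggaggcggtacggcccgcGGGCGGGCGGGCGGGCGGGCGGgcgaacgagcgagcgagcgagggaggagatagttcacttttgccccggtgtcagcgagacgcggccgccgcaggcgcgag
F2r: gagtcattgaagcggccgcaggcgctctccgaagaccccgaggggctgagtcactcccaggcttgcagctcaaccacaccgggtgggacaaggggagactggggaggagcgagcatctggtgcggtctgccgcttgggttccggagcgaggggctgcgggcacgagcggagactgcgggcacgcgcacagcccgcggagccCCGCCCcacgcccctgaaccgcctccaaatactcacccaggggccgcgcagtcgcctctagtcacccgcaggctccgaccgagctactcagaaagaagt
The Iqgap2 window held 6 GC boxes, 5 of them in 1 overlapping run, and the F2r window held 1. Neither held another of these motifs. Among all 32851 RefSeq promoters of this length, 35.7% held a GC box, 37.4% a CCAAT box, 13.6% a TATA box and 7.15% an E-box.

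Tedc2, which encodes a tubulin epsilon and delta complex protein of the centriole, measured 8.41, 8.41 and 8.49 in the arrays labelled KO 6 months and 10.24, 10.23 and 10.09 in those labelled tumor. Its difference was 1.75 (SE 0.24, adjusted p = 0.0455 from limma and 6.74e-05 over the 6 arrays). WT 24 months lay at 8.45 to 9.42 and WT 6 months at 5.92 to 6.77, so no other labelled group reached the labelled tumor arrays. The call was lost without any 1 of the 6 arrays compared and without replicate 1 of WT 6 months. The adjusted p was then 0.340 at most (limma), while the difference stayed between 1.72 and 1.80. Probe sets averaged per gene, centring on the array median and the replicate block gave Tedc2 an adjusted p of 0.0515, 0.0530 and 0.0760 (limma). Of the 19 measured centriole and tubulin genes it alone passed the test, with 3 members higher and 1 lower without overlap and a median difference of 0.0014.

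Its direct neighbour on chromosome 17 was also higher in every labelled tumor array. Ccnf, which encodes cyclin F, a substrate receptor of an SCF ubiquitin ligase, measured 6.70, 6.94 and 6.60 in the arrays labelled KO 6 months. In the arrays labelled tumor it measured 9.15, 8.98 and 7.87, with replicate 3 below the other 2. The difference was 1.92 (SE 0.31, adjusted p = 0.108 from limma and 0.0211 over the 6 arrays), and the second probe set gave 1.37. Without replicate 3 of the labelled tumor arrays, Ccnf differed by 2.32 (adjusted p = 0.0134 from limma). Without any other 1 of the 6 arrays compared it missed the test, with an adjusted p between 0.220 and 0.589 (limma).

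The promoters of Tedc2 (chr17:24220802-24221101) and Ccnf (chr17:24251360-24251659), both on the minus strand, are printed in the same way, with the same motifs in capitals, because these neighbours were both higher.
Tedc2: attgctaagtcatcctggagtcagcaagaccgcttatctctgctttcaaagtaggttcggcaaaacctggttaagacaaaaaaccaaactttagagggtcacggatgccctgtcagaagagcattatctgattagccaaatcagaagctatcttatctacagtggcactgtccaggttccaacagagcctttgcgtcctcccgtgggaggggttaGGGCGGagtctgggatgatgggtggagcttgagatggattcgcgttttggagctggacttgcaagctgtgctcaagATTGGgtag
Ccnf: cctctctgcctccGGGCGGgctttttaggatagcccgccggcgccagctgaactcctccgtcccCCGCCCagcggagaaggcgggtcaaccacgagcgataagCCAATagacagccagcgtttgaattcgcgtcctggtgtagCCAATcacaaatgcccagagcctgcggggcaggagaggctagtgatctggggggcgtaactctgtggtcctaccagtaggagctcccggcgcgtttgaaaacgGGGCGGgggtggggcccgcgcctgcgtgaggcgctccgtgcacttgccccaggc
The Tedc2 window held 1 GC box and 1 CCAAT box, and the Ccnf window held 3 GC boxes and 2 CCAAT boxes. Neither held a TATA box or an E-box.

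Further along the same stretch of chromosome 17, Abca3, a lipid transporter, differed by -1.12 (SE 0.34, adjusted p = 0.634 from limma), and by -0.72 with the mean of its probe sets. Meiob, a meiosis gene, measured 8.62, 8.41 and 8.46 against 6.49, 6.33 and 7.78, a difference of -1.63 (SE 0.31, adjusted p = 0.207 from limma). Gfer, the growth factor known as augmenter of liver regeneration, measured 9.76, 9.58 and 9.58 against 10.41, 10.51 and 9.99, a difference of 0.66, while its other probe set differed by -0.73. In Ccnf, Abca3, Meiob and Gfer, replicate 3 of the labelled tumor arrays lay nearer to KO 6 months than replicates 1 and 2 did.

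Between Zfp994 and Decr2, the ends of that stretch, 124 genes were measured, and 26 of them did not overlap between the groups, which is 20.97% against 16.23% of all genes. Of these, 13 differed by 0.5 log2 or more, 11 higher and 2 lower. They make up 10.5% of the genes in the stretch, against 2.56% of all genes by the same rule. The ends were chosen after the values were seen, at genes that themselves did not overlap, so the share describes these genes and supports nothing by itself. Replicate 3 lay nearest to KO 6 months in 8 of the 13, and in 26.9% of all genes of that size. Zfp213, Zfp994, Unkl and Decr2, the enzyme gene of peroxisomal fatty acid breakdown, were among those higher, by 0.78, 1.05, 0.72 and 0.74, the first by 0.41 with the mean of its probe sets.

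**Figure D2:**
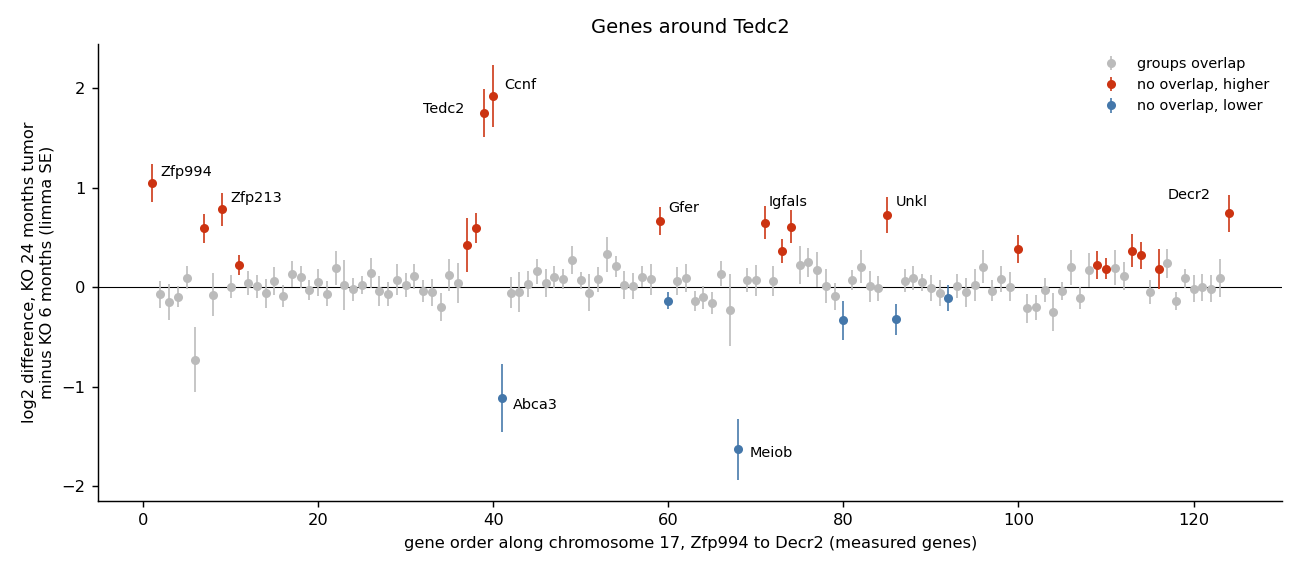
Log2 difference of the arrays labelled KO 24 months tumor minus KO 6 months (limma SE as bars) for the 124 measured genes between Zfp994 and Decr2, in their order along chromosome 17. Tedc2 and Ccnf stand next to each other at 1.75 and 1.92, Abca3 and Meiob lie below 0, and most other genes lie near 0.

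Some probe sets differed by a wide step with no value in between. Among all 34958 probe sets that name 1 gene, 27 probe sets of 23 genes had a gap of over 1 log2 between the nearest arrays of both groups, 18 of these genes higher and 5 lower. Over the brightest probe set of each gene, a 3-fold difference without overlap was found for 24 genes (0.132%), 15 higher and 9 lower. Chromosome 13 held 7 of the 23 genes and chromosome 17 held 4, where 3.89% and 4.62% of all measured genes lie. Iqgap2 and Foxq1 are among the 7 and Tedc2 is among the 4, and no test was made of these counts.

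Zfp874a, a zinc finger gene of chromosome 13, had the widest gap of the 23 genes after Iqgap2. It measured 4.203, 3.935 and 4.190 in the arrays labelled KO 6 months and 6.87, 6.72 and 6.77 in those labelled tumor. The difference of 2.68 missed the test in limma over all 12 arrays, and passed it over the 6 arrays (adjusted p = 5.5e-06). WT 24 months held both levels, with 4.31 in replicate 1 and 6.73 and 6.85 in replicates 2 and 3, while WT 6 months lay at 4.002 to 4.460.

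A split of the WT 24 months arrays was seen in 6 of the 18 higher genes, counted where replicate 1 lay below and replicates 2 and 3 above the midpoint of the means of both groups compared, with WT 6 months below it. They were Zfp874a, Gm7969, Sugct and Ctsl on chromosome 13, Zfp945 on chromosome 17 and Car8 on chromosome 4. In the step probe sets of these 6 genes, every KO 6 months array lay below the array medians of 5.41 to 5.45. Gm7969 measured 3.21, 3.50 and 3.59 in KO 6 months and 7.40, 6.05 and 8.25 in the labelled tumor arrays. It measured 3.39, 8.23 and 7.93 in WT 24 months. Another probe set of Gm7969 differed by 0.34, and the mean of its probe sets by 2.49. The step probe set of Sugct, a mitochondrial enzyme gene of glutarate metabolism, measured 4.78, 4.86 and 4.66 against 6.89, 7.72 and 7.29. The split parted arrays that share 1 label, but not always by the full step. In Car8 replicates 2 and 3 of WT 24 months, at 6.23 and 6.01, lay below the labelled tumor arrays at 6.73 to 6.78, and in Sugct replicate 3, at 6.10, lay below theirs. Some steps belonged to a dimmer probe set only. The brightest probe sets of Sugct, Zfp945, Car8 and Ctsl, the lysosomal protease cathepsin L, differed by -0.31, -0.73, -0.22 and -0.28, and that of Tiam2, a RAC1 exchange factor, by -0.15. The step probe set of Tiam2 measured 4.06 to 4.15 in KO 6 months and 6.45 to 7.32 in the labelled tumor arrays.

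**Figure D3:**
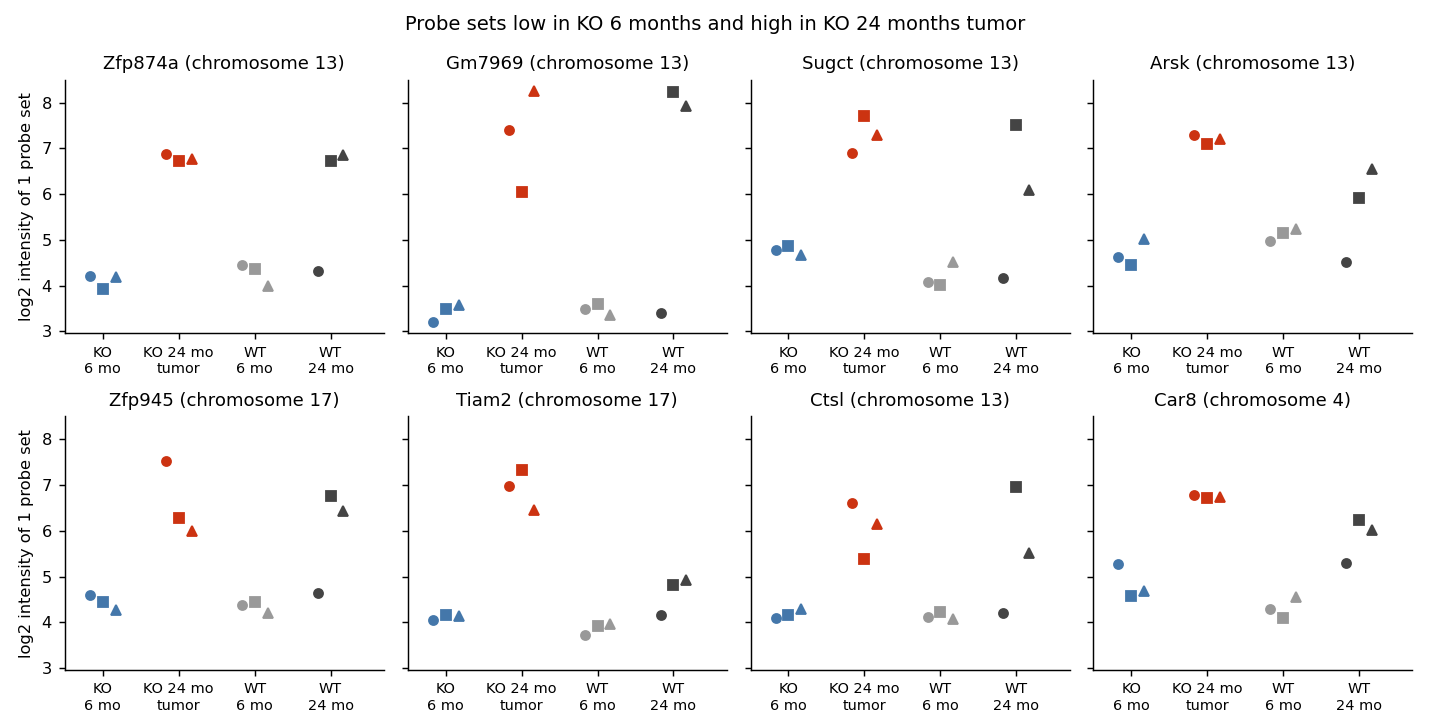
Log2 intensity of 1 probe set of 8 genes in each array of the 4 labelled groups (circle, square and triangle for replicates 1, 2 and 3). In every panel the 3 arrays labelled KO 24 months tumor lie above those labelled KO 6 months by a gap of over 1 log2. In Zfp874a, Gm7969, Sugct, Zfp945, Ctsl and Car8 replicate 1 of WT 24 months lies below, and its other replicates above, the midpoint of both groups compared, with replicates 2 and 3 of Car8 and replicate 3 of Sugct below every labelled tumor array.

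Below a fold of 3, small shifts without overlap of the arrays were common. With 3 arrays against 3, a gene without any difference fails to overlap, in either direction, with a probability of 0.1. The share over all genes here was 16.23%, so many genes of these counts need not differ. The 2 groups did not overlap in 1454 genes that were higher (7.99%) and 1499 that were lower (8.24%) in the arrays labelled tumor. Of these, 1439 and 1490 changed less than 3-fold, and 1424 and 1462 less than 2-fold. The median size of the differences without overlap was 0.27, against 0.10 over all genes, and the median of all differences was 0.0016. Each gene in such a count rests on 3 arrays against 3, and the counts themselves carry no test.

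Among genes with a mean log2 intensity of at least 6, the 15 higher and 15 lower ones with the smallest p in limma, among those without overlap and under a fold of 3, were examined further. Their choice used the same contrast, so their values are a description. The higher ones lay between 0.43 and 1.41 and the lower ones between -1.13 and -0.42, and of the 30 only Fam214a and Aatk passed limma over 12 arrays.

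Il1r1, the receptor of interleukin 1, measured 8.37, 8.45 and 8.61 in the arrays labelled KO 6 months and 9.47, 9.72 and 9.33 in those labelled tumor, a difference of 1.03 (SE 0.16, adjusted p = 0.0991 from limma and 0.0112 over the 6 arrays). With the mean of its probe sets the difference was 0.43. Pim1, a survival kinase downstream of cytokine receptors, differed by 0.74 (SE 0.13). Both receptor and kinase were thus higher in every labelled tumor array than in any KO 6 months array.

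Other genes of the same set follow, none of which passed limma over 12 arrays. Foxa2, a pioneer factor of hepatocyte genes, measured 9.20, 9.01 and 8.91 against 9.73, 10.16 and 10.18, a difference of 0.98 (SE 0.22, adjusted p = 0.376 from limma and 0.0211 over the 6 arrays). Xbp1, the transcription factor of the unfolded protein response, measured 11.72, 11.95 and 11.70 against 12.21, 12.51 and 12.66. Cyp2b10, a cytochrome P450 that the nuclear receptor CAR induces, measured 7.99, 7.88 and 8.22 against 8.85, 8.77 and 9.07 (difference 0.86, SE 0.16). Mnt, a repressor of the MYC network, measured 7.81, 7.98 and 8.02 against 8.48, 8.48 and 8.51. Its difference was 0.55, and 0.14 with the mean of its probe sets. Cdc42ep1, an effector of CDC42, which is a partner of IQGAP2, differed by 0.62 (SE 0.12, adjusted p = 0.218 from limma and 0.0387 over the 6 arrays), and by 0.37 with the mean of its probe sets. Rarres1, a retinoic acid responder, had the largest of the 15 higher differences, 1.41, but also the widest KO 6 months values, from 8.65 to 10.15.

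Among the lower ones, Tmem242, a membrane protein gene, measured 10.13, 10.29 and 10.23 in KO 6 months and 8.83, 9.02 and 9.42 in the labelled tumor arrays. Its difference was -1.13 (SE 0.19, adjusted p = 0.142 from limma and 0.0152 over the 6 arrays), and -0.34 with the mean of its probe sets. Klf15, a factor that promotes gluconeogenesis from amino acids, measured 12.34, 12.70 and 12.59 against 12.13, 11.87 and 12.03. Psma7, a proteasome subunit, was lower by 0.53 on the log2 scale and Rps29, a ribosomal protein, by 0.42. For Rps29, one of the brightest genes, this meant 14.17 to 14.32 in KO 6 months against 13.66 to 13.95 in the labelled tumor arrays.

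**Figure D4:**
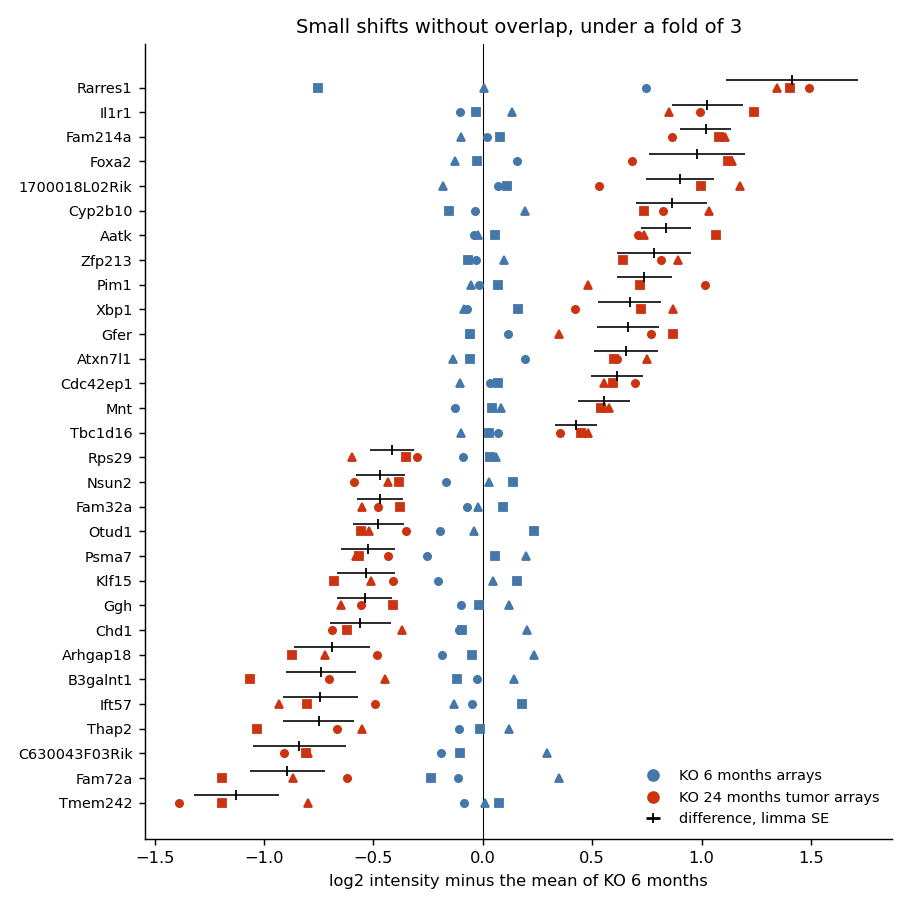
The 15 higher and 15 lower small shifts, with each array plotted as its log2 intensity minus the mean of the KO 6 months arrays (circle, square and triangle for replicates 1, 2 and 3), and the difference of the means with its limma SE as a bar above. In each gene the 3 labelled tumor arrays lie on 1 side of the 3 KO 6 months arrays, by differences between -1.13 and 1.41.

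Genes were then counted over 44 lists of pathways, cell types and tumor markers with 615 measured genes. The genes that passed limma were spread over the lists of IQGAP scaffolds (Iqgap2), immediate-early and MAPK feedback genes (Phlda1), forkhead factors (Foxq1) and centriole genes (Tedc2), and no other list held one. Lists are therefore described by their members without overlap, beside the 7.99% of all genes that were higher and the 8.24% that were lower.

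The forkhead list had 5 of 16 measured members higher and 1 lower, with a median difference of 0.07. Beside Foxq1 and Foxa2, Foxa1, the other pioneer factor, measured 8.32, 8.24 and 8.48 against 8.55, 9.37 and 9.58, a difference of 0.82 (SE 0.26, adjusted p = 0.64 from limma). Foxk1 differed by 0.26 and Foxred1, a mitochondrial assembly factor that is no forkhead protein, by 0.26. Foxm1, the forkhead factor of the cell cycle, was the lower one at -0.16.

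Of 15 measured targets of fasting and FOXO factors, 6 were lower and 1 higher without overlap, with a median of -0.08. Over the list the differences ran from -2.61 to 0.59, and the members named here are lower ones. Igfbp1, a liver-made binding protein of insulin-like growth factors that insulin represses, measured 11.91, 11.99 and 10.84 in the arrays labelled KO 6 months and 10.14, 8.67 and 8.08 in those labelled tumor. Its difference of -2.61 (SE 0.51, adjusted p = 0.230 from limma and 0.0535 over the 6 arrays) missed the test in both fits. Ppargc1a, the coactivator of gluconeogenesis, differed by -1.20, and Tat, the tyrosine aminotransferase gene, by -0.81, each passing only over the 6 arrays (adjusted p = 0.0425 and 0.0223 from limma). Irs2, the insulin receptor substrate, differed by -0.48 and Pck1, a rate-controlling enzyme of gluconeogenesis, by -0.17. G6pc differed by -0.97, with arrays that overlapped.

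In the growth hormone list 4 of 19 measured members were higher and 1 lower, with a median of 0.09. Bcl6, a repressor that growth hormone turns down in liver, measured 9.67, 10.26 and 9.97 in KO 6 months and 8.05, 7.03 and 7.68 in the labelled tumor arrays, and its other probe set differed by -1.88. The difference of -2.38 (SE 0.63) had an adjusted p of 0.449 from limma over 12 arrays and 0.00376 over 6. WT 6 months held 9.85, 7.59 and 7.88 and WT 24 months 8.46, 6.41 and 8.61, so those groups were wide in Bcl6. Cish, a target of growth hormone and STAT5, measured 7.41, 7.38 and 7.25 against 8.02, 9.59 and 10.22, and Igfals, the acid-labile subunit that carries IGF1 in blood, 10.64, 10.31 and 9.98 against 10.93, 10.97 and 10.98. Igf1 itself differed by -0.05. In both Bcl6 and Igfbp1, the labelled tumor arrays lay below every KO 6 months array.

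Metallothionein and glucocorticoid genes split, with 3 of 14 measured members higher and 3 lower. Mt2 measured 6.97, 7.34 and 8.03 against 8.96 to 9.03 and Fkbp5, a chaperone gene that glucocorticoids induce, 8.08, 8.97 and 9.32 against 9.90, 10.22 and 10.51. The Fkbp5 difference was 1.42, and 0.70 with the mean of its probe sets. Sgk1, another glucocorticoid target, was lower by 0.95 on the log2 scale. Chac1, an enzyme of glutathione breakdown and a target of the amino acid stress response, measured 6.75, 6.49 and 6.63 against 8.31, 8.40 and 8.47 (difference 1.77, adjusted p = 0.201 from limma and 0.000104 over the 6 arrays). Only 2 of 18 measured genes of endoplasmic reticulum and amino acid stress were higher without overlap.

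The acute phase list had 7 of 23 measured members higher and 2 lower, with a median of 0.04. Orm3 measured 6.44, 5.45 and 5.78 against 7.86, 7.46 and 7.31, a difference of 1.65 (SE 0.33, adjusted p = 0.266 from limma and 0.0196 over the 6 arrays). Saa1, a serum amyloid gene, differed by 0.82 and Lcn2, an iron-binding defence protein, by 0.64. The main secreted proteins of this list, such as Hp (haptoglobin) and the fibrinogen genes Fga and Fgb, differed by -0.04, 0.04 and -0.03.

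Several genes of secreted or membrane proteins outside the lists had large differences, and were chosen after their values were seen. Obp2a, an odorant-binding protein, measured 9.01, 5.97 and 5.96 in KO 6 months and 10.58, 11.33 and 10.86 in the labelled tumor arrays, a difference of 3.94 (SE 0.72, adjusted p = 0.201 from limma and 0.0435 over the 6 arrays). Scara5, a ferritin receptor, measured 7.29, 6.70 and 6.89 against 8.97, 9.90 and 10.14, a difference of 2.71 that was 1.38 with the mean of its probe sets. Dio1, the deiodinase that activates thyroid hormone in liver, measured 10.83, 8.28 and 6.94 against 11.33, 11.59 and 11.66. Serpina4-ps1, a serpin pseudogene, measured 8.69, 8.95 and 7.37 against 9.78, 11.91 and 12.51. These 4 were higher in every labelled tumor array, but in Obp2a and Dio1 replicate 1 of KO 6 months lay far above the other 2. Cyp7a1, the rate-limiting enzyme of bile acid synthesis, was lower by 1.79 on the log2 scale (SE 0.63, adjusted p = 0.695 from limma).

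MHC class II genes, which present antigens on macrophages, dendritic cells and B cells, were lower in every labelled tumor array. H2-Ab1 measured 8.53, 9.13 and 8.92 in the arrays labelled KO 6 months and 7.72, 7.03 and 7.18 in those labelled tumor, a difference of -1.55. H2-Aa measured 10.08, 10.79 and 10.50 against 9.28, 8.86 and 9.05. H2-Eb1 and Cd74, the invariant chain, differed by -1.19 and -1.15. These were the 4 members of the antigen presentation list (13 measured) that were lower without overlap, while the class I gene H2-K1 differed by 0.01 and B2m, the light chain of class I, by 0.13. Over 12 arrays none passed limma (adjusted p = 0.889 for H2-Ab1, SE 0.92), and over the 6 arrays all 4 did (adjusted p from 0.0138 to 0.0285). Replicate 3 of WT 24 months stood apart in them, with 12.32 in H2-Ab1 against 7.89 and 7.72 in replicates 1 and 2. Without that array the adjusted p of H2-Ab1 in limma was 0.0424 and that of H2-Aa 0.0447.

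Of 18 measured Kupffer cell and macrophage markers, 8 were lower and 1 higher without overlap, with a median of -0.36. The mean of the list over its 18 genes lay at 6.83 to 7.13 in the labelled tumor arrays and at 7.27 to 7.51 in the arrays labelled KO 6 months. It lay at 7.28 to 7.93 in WT 6 months and at 7.40 to 10.03 in WT 24 months, where replicate 3 was the highest. The complement genes C1qa, C1qb and C1qc, which Kupffer cells make, differed by -0.68, -0.72 and -0.70, Csf1r, the receptor of their growth factor, by -0.58 and Timd4, a marker of resident Kupffer cells, by -0.95. Clec4f, the most specific Kupffer cell marker of the list, differed by -0.31 and its arrays overlapped, and it was far from absent, at 8.69 to 9.13 in the labelled tumor arrays. Adgre4 and Cd207, 2 more genes of macrophages and dendritic cells, differed by -1.46 and -1.49. In whole tissue, fewer cells of a type and less RNA of its genes per cell cannot be told apart, and the part of the macrophage markers in the MHC class II values was not tested.

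Stellate cell and matrix markers had 6 of 18 measured members lower and 0 higher without overlap, with a median of -0.20. Their mean level was 7.32 to 7.39 in the labelled tumor arrays and 7.53 to 7.73 in KO 6 months. Dcn, the matrix proteoglycan decorin, measured 11.63, 11.67 and 11.68 in KO 6 months and 11.10, 10.99 and 11.02 in the labelled tumor arrays, with the groups 0.53 apart at their nearest arrays. Its difference was -0.62, and -0.24 with the mean of its probe sets. Lrat, the retinyl ester enzyme that defines stellate cells, differed by -1.29 with overlap. Sinusoidal endothelial markers had 3 of 23 lower and 0 higher (median -0.08), T and NK cell markers 3 of 14 lower and 1 higher (median 0.0089), and B and plasma cell markers 0 of 11 lower and 1 higher (median 0.15). The part of these cell types in other results was not tested.

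Interferon-induced genes had 7 of 18 measured members lower and 1 higher, with a median of -0.40. Usp18, which switches off interferon signalling, measured 7.28, 6.88 and 7.01 against 6.05, 5.45 and 5.92, a difference of -1.25 (adjusted p = 0.848 from limma and 0.0152 over the 6 arrays). Cxcl9, Cxcl10, Rsad2 and Ifit3 differed by -0.63, -0.64, -0.65 and -0.58. Nlrc5, the activator of MHC class I genes, which was not in the list, differed by 1.09.

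**Figure D5:**
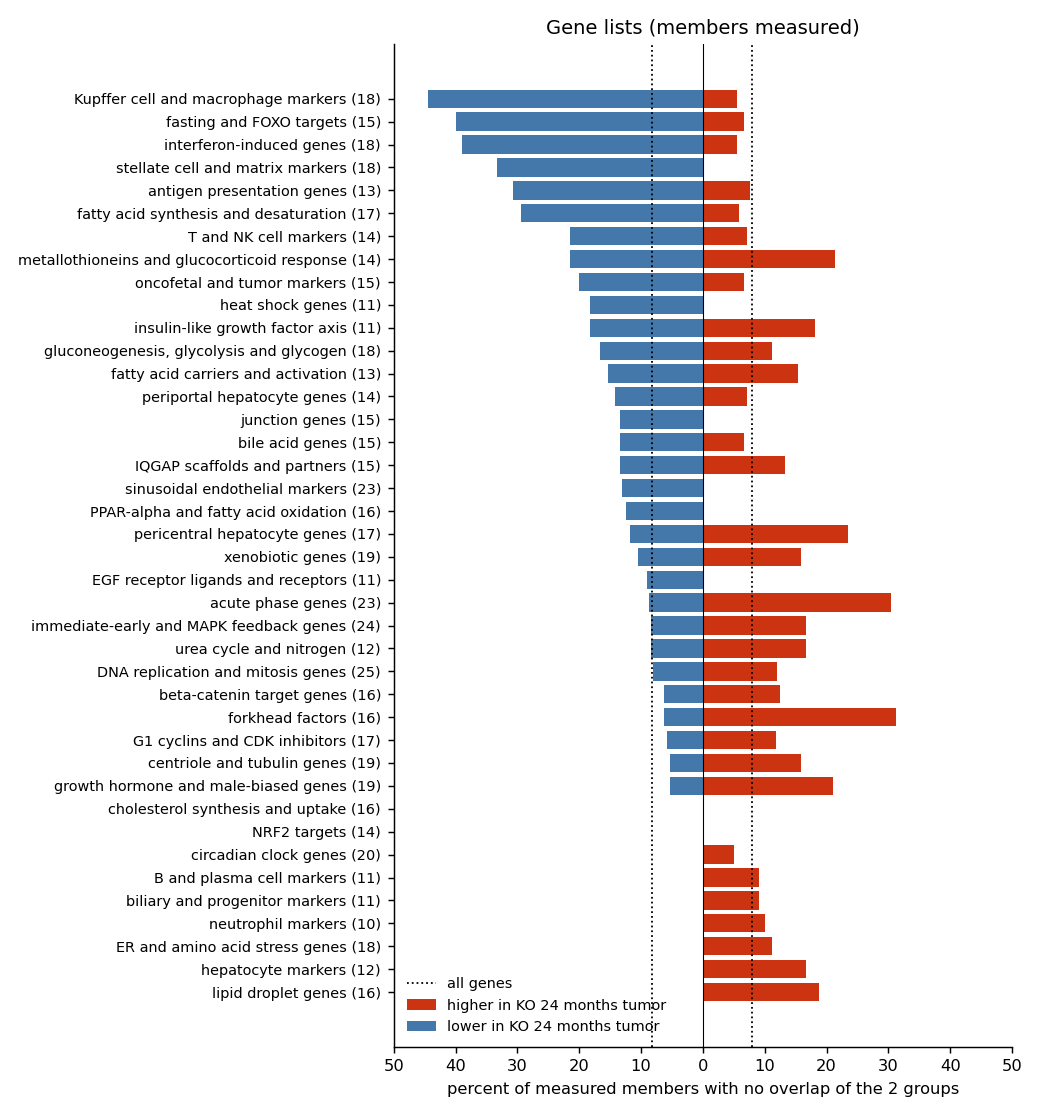
Percent of the measured members of each list (their number in parentheses, lists of 10 or more) whose 3 arrays labelled KO 24 months tumor lay all above (right) or all below (left) the 3 arrays labelled KO 6 months. The dotted lines give the shares over all genes, 7.99% and 8.24%. Macrophage markers reach the largest share lower, with 8 of 18.

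The labelled tissue was compared with markers of liver tumors. Of 15 measured oncofetal and tumor markers, 1 was higher and 3 lower without overlap in the arrays labelled tumor (median 0.13), and none passed limma. Afp was among the lower ones, with a difference of -0.53 (SE 0.40). Gpc3, the HCC marker glypican-3, measured 5.05, 5.10 and 5.01 in the labelled tumor arrays and 5.31, 5.26 and 5.16 in KO 6 months. Over these markers the mean level was 5.84 to 5.93 in the labelled tumor arrays, 5.78 to 5.92 in KO 6 months, 6.35 to 7.50 in WT 24 months and 8.97 to 9.33 in WT 6 months.

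Of 25 measured genes of DNA replication and mitosis, 3 were higher and 2 lower without overlap, shares near those of all genes, with a median of -0.02. Mki67, the proliferation antigen, measured 5.09, 4.85 and 4.76 in the labelled tumor arrays and 5.02, 4.78 and 5.21 in KO 6 months, and Top2a, the topoisomerase of dividing cells, differed by -0.06. In the arrays labelled WT 6 months Mki67 lay at 7.52 to 8.01. Rrm2, a subunit of ribonucleotide reductase, differed by 0.88 and Aurka, a mitotic kinase, by 0.41, and neither passed limma.

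The list of β-catenin targets had 2 of 16 measured members higher and 1 lower, with a median of 0.13. Axin2, a feedback inhibitor of the pathway, measured 7.55, 7.38 and 7.58 in the labelled tumor arrays and 7.55, 7.36 and 6.55 in KO 6 months. Lgr5, a receptor for R-spondins, differed by 0.23 (SE 0.25) and Glul, the pericentral glutamine synthetase, by 0.39 (SE 0.18). Sp5 differed by 0.57, Nlk by 0.22 and Cd44 by -0.84, the members without overlap. Nlk is a kinase of the pathway rather than an established target, and is counted here because the list held it. In the arrays labelled WT 6 months Axin2 lay at 10.04 to 10.56 and Lgr5 at 10.55 to 10.68, above every array of the groups compared.

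The mean level of the hepatocyte markers was 14.17 to 14.21 in the labelled tumor arrays and 14.11 to 14.12 in KO 6 months, without overlap. Alb, Ttr and Apoa1, the albumin, transthyretin and apolipoprotein genes, differed by -0.04, -0.02 and -0.04. Hnf4a, the master regulator of hepatocyte genes, measured 12.72, 12.90 and 12.67 in KO 6 months and 13.03, 13.07 and 13.19 in the labelled tumor arrays, a difference of 0.33 (SE 0.10, adjusted p = 0.64 from limma) that was 0.10 with the mean of its probe sets. Cebpa, another hepatocyte factor, differed by 0.41. No member of this list was lower without overlap, and 2 of 12 were higher.

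Of 17 measured genes of fatty acid synthesis and desaturation, 5 were lower and 1 higher (median -0.07), among them Fasn, the fatty acid synthase, at -0.30, Acly at -0.38 and Scd1 at -0.44, while Pklr, the liver pyruvate kinase, was at 0.84. Of 16 lipid droplet genes 3 were higher and 0 lower (median 0.14), with G0s2, an inhibitor of fat breakdown, at 1.02. The 16 genes of cholesterol synthesis and uptake had a median of -0.30, but 0 of them separated the groups, and without replicate 2 of KO 6 months the median was -0.59, without replicate 1 -0.12.

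The 6 genes that passed limma were compared with the other labelled groups in the same fit. The arrays labelled WT 24 months against KO 6 months called 0.341% of genes, among them Iqgap2 (3.88) and Aatk (0.69, adjusted p = 0.0422 from limma). The labelled tumor arrays and WT 24 months differed by -0.05 in Iqgap2. The arrays labelled WT 6 months against KO 6 months called 17% of genes. There Phlda1 was higher by 1.05 in WT 6 months, while Foxq1 differed by -1.14, Tedc2 by -2.17 and Fam214a by -0.56, and these 4 passed limma (adjusted p from 0.00015 to 0.0080). Iqgap2 differed there by 0.03 and Aatk by -0.11, and neither passed. Fam214a and Tedc2 were higher in the labelled tumor arrays than in WT 24 months, by 1.01 (adjusted p = 0.00800 from limma) and 1.32 (adjusted p = 0.0439). Foxq1 and Aatk differed there by 1.06 (adjusted p = 0.0851) and 0.15 (adjusted p = 0.534). As labelled, the change with age in KO could also be set against that in WT, a difference of differences that called 4.83% of genes. Of the 6, only Phlda1 passed it. With both labels exchanged, the same number would set the genotype difference at 6 months against that at 24 months.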

How the data were processed

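Total RNA of 12 mouse livers or liver tumors was hybridised to Affymetrix arrays, and the authors deposited log2 intensities made by RMA (in R with Simpleaffy at default settings, per the study's methods). Of 45101 probe sets, 34958 name 1 gene, 932 several and 9211 none in the annotation used here; the brightest probe set by mean log2 stood for each of 18194 genes. Array medians lay between 5.41 and 5.45. Groups follow the deposited labels, also where Iqgap2 goes against them. The groups were compared with limma 3.58.1 in R 4.3.3 over all 4 groups, with Benjamini-Hochberg adjustment over all genes, an adjusted p of at most 0.05 and, as a second rule, a fold of 3; tables and figures were made in Python 3.11.15. A call of no overlap means that all 3 arrays of 1 group lay above all 3 of the other.

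Genes named are Iqgap1 to Iqgap3, Afp, Phlda1, Foxq1 and Tedc2, every gene called, the 15 smallest p in each direction among small shifts with a mean log2 of at least 6, from every list at most 4 members, taken by p, markers a statement needs, and the 5 genes most correlated with Iqgap2. Genes outside that rule (step genes, neighbours, other large differences and further members of the lists) were chosen after their values were seen. The members, lists and rules were chosen with earlier results of these data known. Alternatives were SAM, the 6 arrays alone, the replicate number as a block, other uses of probe sets, a filter on dim genes, another variance prior, centring of arrays, a fold of 2 and leaving out each array. The procedure was tested on simulated data with 18194 genes. At a 2-fold change it found 88 of 100 altered genes, at a 4-fold change 98 of 100, and it falsely named 8. Apart from these changes, the simulation gave all arrays of a gene the same mean and spread. The real groups differed in both, so these shares do not give the recovery in this comparison. In the real data 24 genes differed 3-fold without overlap, and 4 genes were called at that fold.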

Additional observations from a re-analysis of the deposited data

Results flagged for a closer look

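Phlda1 stood out because its change with age, as labelled, differed between the genotypes. Every array labelled KO 24 months tumor exceeded those labelled KO 6 months, while the mean of WT 24 months (10.80) lay below that of WT 6 months (11.36) with arrays that overlapped, and the difference of these changes was 2.52 on the log2 scale (SE 0.32, adjusted p = 0.00098 from limma, a comparison that called 4.83% of genes). With the labels KO 24 months tumor and WT 6 months exchanged, the same value compares the genotypes at both ages. Which reading applies was not tested.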

How the results depend on the processing

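The 4 higher and 0 lower genes at a fold of 3, and the 6 and 0 at the adjusted p alone, changed with the arrays in the fit, the test and the centring. The 6 arrays alone gave 11 higher and 4 lower at a fold of 3 and 35 and 45 at the adjusted p alone, SAM gave 11 and 5 and then 51 and 79, and centring on housekeeping genes gave 9 and 3 and then 10 and 3. Leaving the WT 24 months arrays out of the fit, chosen after seeing the data, gave 8 and 1 and then 18 and 10. With every probe set, 2224 of 34958 probe sets were higher and 2309 lower without overlap and under a fold of 3. The main counts, over 18194 genes, were 1439 and 1490, and centring on housekeeping genes gave 936 higher. The causes were not tested, except that more probe sets or fewer arrays make a count of no overlap larger by construction.

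Leaving out 1 array gave 1 to 8 genes higher and 0 to 1 lower at a fold of 3, 1 to 12 and 0 to 3 at the adjusted p alone, and 2161 to 2695 and 2134 to 2830 without overlap under a fold of 3, where only arrays of the groups compared can move the last counts. At the adjusted p alone, 1 gene was higher without replicate 2 or 3 of KO 6 months or replicate 2 of KO 24 months tumor, 2 without replicate 3 of the latter, and 12 without replicate 1 of WT 24 months, while 3 were lower without replicate 3 of WT 24 months.

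With the replicate block, 1 gene was higher at a fold of 3 and 1 at the adjusted p alone, which was Iqgap2. The deviations of arrays with the same number from their group means had correlations of 0.092, -0.16 and -0.11 between the groups compared. Replicate 2 of KO 6 months and replicate 3 of the labelled tumor arrays had 0.23. A pairing by number was not visible in these values, which cannot show whether arrays shared a batch.

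Over the differences of single named genes under all alternatives, 4915 kept their direction and side of the threshold. Another 133 passed it anew, 41 lost it and 36, of 21 genes, turned direction. Most named genes were not called, so keeping the side mostly meant staying uncalled. Only the 6 called genes could lose a call. Phlda1 lost it in 5 alternatives, Foxq1 in 6, Fam214a in 8, Tedc2 in 10 and Aatk in 12, while Iqgap2 kept it in all 21. None of those that turned was called on either side (lowest adjusted p 0.338 from limma). With probe sets averaged per gene these were Actb (-0.018), Nbr1 (-0.027), Gfer (-0.033), Slc4a1 (-0.069), Cp (-0.14), Ttr (0.014), Igf1 (0.028) and Zfp945 (0.42), and with centring on housekeeping genes Hba-a1 (-0.0095) and Hamp (-0.018). Leaving out 1 array turned Krt23 (-0.081 to 0.39), Hba-a1 (-0.035 to 0.10), Gusb (-0.18 to 0.028), Hamp (-0.017 to 0.066), Igf2 (-0.0018 to 0.26), Foxa3 (-0.28 to 0.32), Nbr1 (-0.053 to 0.21), Hsd3b5 (-0.050 to 1.11), Elovl3 (-0.31 to 0.55), Slc4a1 (-0.14 to 0.19), Actb (-0.024 to 0.20), Hprt (-0.076 to 0.011), Mmp9 (-0.20 to 0.035), Elane (-0.016 to 0.29), Top2a (-0.19 to 0.0084), Ttr (-0.054 to 0.0012) and Apoa1 (-0.076 to 0.0096), given as the range over these fits. Among the medians of the lists, that of cholesterol genes moved by over the spread, to -0.59 without replicate 2 of KO 6 months. The other alternatives (mean of probe sets, a filter on dim genes, another variance prior, centring on the array median, a fold of 2) left the counts within 1.5 times. Small differences near background intensity are limited by the 3 arrays per group.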
